A study of Mus musculus with 6 samples.

Results

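Apold1, Tmem252, Rrad, Plaur, Depp1, Ccl2, Icam1, Nfkbia and Lcn2 are stress- and injury-responsive genes of vessels and glia. Of these 9 genes, 8 stood higher in every library from aged hypothalamus than in any library from young hypothalamus, as did 15.5% of all genes tested. The 9 genes were chosen by symbol with the difference between these same libraries in view, so their levels and fold changes are a description and carry no test. All 9 were found among the 18228 genes of the deposited count table. A filter on low counts left 14702 genes, with 8 of the 9; Lcn2 did not pass it. RNA was sequenced from hypothalamus of 3 mice aged 22 months (aged) and 3 mice aged 12 weeks (young), drawn at random from 5 mice per age after a behavioural experiment. All mice were kept on a regular light and dark cycle with free food and water, were anaesthetised with sodium pentobarbital and killed by dislocation, and the hypothalamus was frozen in liquid nitrogen. The sources used here do not give strain, sex, litter, batch or hour of death, and they name no allele and no treatment beyond the anaesthetic.

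Vessel walls answer stress, flow changes and cytokines with a fast wave of transcription. In this response NF-κB dimers, held in the cytoplasm by inhibitors such as the product of Nfkbia, enter the nucleus and switch on chemokines, adhesion molecules and their own inhibitor. Chemokines such as CCL2 draw monocytes, ICAM1 on the endothelium holds leukocytes through β2 integrins, the urokinase receptor encoded by Plaur gathers protease activity at the cell surface, and LCN2 is an acute-phase protein that binds iron-carrying siderophores. Apold1 encodes an endothelial early-response protein, Rrad a small GTPase of the RGK family that damps calcium channels, and Depp1 a FOXO-responsive protein linked to autophagy; Tmem252 encodes a membrane protein.

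RefSeq promoter sequences, 250 bases before to 50 after the gene start on GRCm38.p6, were matched by symbol for 7 of the 9 genes. They were searched on both strands for the NF-κB motif, the CArG box, AP-1 (TGACTCA), CRE (TGACGTCA), FOXO (GTAAACA), STAT (TTCNNNGAA) and the TATA box (TATAAA). The 4 promoters shown are those with a match other than the TATA box. All 4 genes stood higher in the aged libraries, but so did Tmem252 and Depp1, whose promoters held no match. Capitals mark the NF-κB match in Nfkbia, the AP-1 match in Plaur and the STAT match in Apold1 and in Icam1. None of these overlaps another match.
Nfkbia, chr12:55492598-55492897, minus strand: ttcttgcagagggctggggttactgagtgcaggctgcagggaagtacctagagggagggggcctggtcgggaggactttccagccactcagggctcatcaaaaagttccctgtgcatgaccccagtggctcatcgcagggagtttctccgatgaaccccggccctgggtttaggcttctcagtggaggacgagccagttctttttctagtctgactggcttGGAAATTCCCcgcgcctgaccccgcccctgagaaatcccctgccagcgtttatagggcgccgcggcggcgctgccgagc
Plaur, chr7:24462233-24462532, plus strand: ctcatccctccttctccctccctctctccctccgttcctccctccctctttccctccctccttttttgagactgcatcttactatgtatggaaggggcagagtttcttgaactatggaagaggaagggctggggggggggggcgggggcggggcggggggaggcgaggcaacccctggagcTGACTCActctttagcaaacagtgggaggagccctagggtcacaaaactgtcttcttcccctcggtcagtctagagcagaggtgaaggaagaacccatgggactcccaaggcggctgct
Apold1, chr6:134981751-134982050, plus strand: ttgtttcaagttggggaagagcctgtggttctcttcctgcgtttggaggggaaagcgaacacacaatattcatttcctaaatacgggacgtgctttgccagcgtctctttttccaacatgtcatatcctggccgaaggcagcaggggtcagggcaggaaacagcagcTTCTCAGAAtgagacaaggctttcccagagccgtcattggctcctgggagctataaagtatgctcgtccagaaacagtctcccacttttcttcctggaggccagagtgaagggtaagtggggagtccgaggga
Icam1, chr9:21015690-21015989, plus strand: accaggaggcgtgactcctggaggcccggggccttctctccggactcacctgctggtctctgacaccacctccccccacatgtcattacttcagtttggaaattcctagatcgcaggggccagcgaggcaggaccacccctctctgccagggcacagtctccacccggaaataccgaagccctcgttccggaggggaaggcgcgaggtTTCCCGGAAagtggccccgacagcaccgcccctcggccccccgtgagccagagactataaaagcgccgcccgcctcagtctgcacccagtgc
The NF-κB motif was found in 1 of the 7 genes and in 4.53% of 32544 promoters of this length. AP-1 was found in 1 of the 7 and in 5.19% of promoters, STAT in 2 of the 7 and in 8.33%, and the TATA box letters in 3 of the 7 and in 13.6%. Relative to the gene start, the TATA box match began at -32 in Apold1. It lay after the start in Icam1 (13) and in Nfkbia (19, on the opposite strand). The promoters of Tmem252, Depp1 and Lcn2 held no match to these letters, and neither CRE, which 1.80% of promoters hold, FOXO (3.66%) nor the CArG box (1.64%) was found in the 7.

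Levels are given as CPM, the reads of a gene scaled to a common library size after TMM (edgeR's trimmed mean of M-values) scaling, and the counted reads per library ran from 17208291 to 18884403. The 9 genes together took 1926 to 2592 reads per aged library, against 657 to 669 per young library. Across the whole table, edgeR's quasi-likelihood test at an adjusted p under 0.05 called 474 genes higher and 535 lower in aged libraries, which became 627 and 446 when libraries were scaled by total counts alone, and 616 and 293 by limma on log2(FPKM + 1). Without aged replicate 3 the calls were 97 higher and 58 lower, and without aged replicate 2 they were 893 and 740. All 12 markers of hypothalamic neurons on the list passed the filter, Pomc, Agrp, Hcrt and Pmch among them. Y-linked Ddx3y, Kdm5d, Uty and Eif2s3y summed to 184 to 203 CPM in aged libraries, against 1.38 to 1.88 CPM in young. Y-linked expression, a mark of male tissue, thus divided the 6 libraries as age did. Every difference between aged and young given here may go with sex as well as age, and they cannot be told apart. Young replicate 3 held the pituitary hormone genes Gh and Prl at 78.3 and 142 CPM, against at most 3.85 and 7.18 CPM elsewhere.

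Of the 8 genes tested, edgeR called 8 higher in aged libraries, where 3.22% of all tested genes were called higher; since this contrast chose the genes, nothing is read from that count. All 3 aged libraries stood above all 3 young libraries for the same 8 genes, as they did for 15.5% of tested genes. The median log2 fold change was 2.75 over the 8 genes and -0.0035 over all genes tested, and 6 of the 8 ranked among the 100 largest rises. In bulk tissue a change in the number of cells of a type and a change in RNA per cell cannot be told apart.

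**Figure D1:**
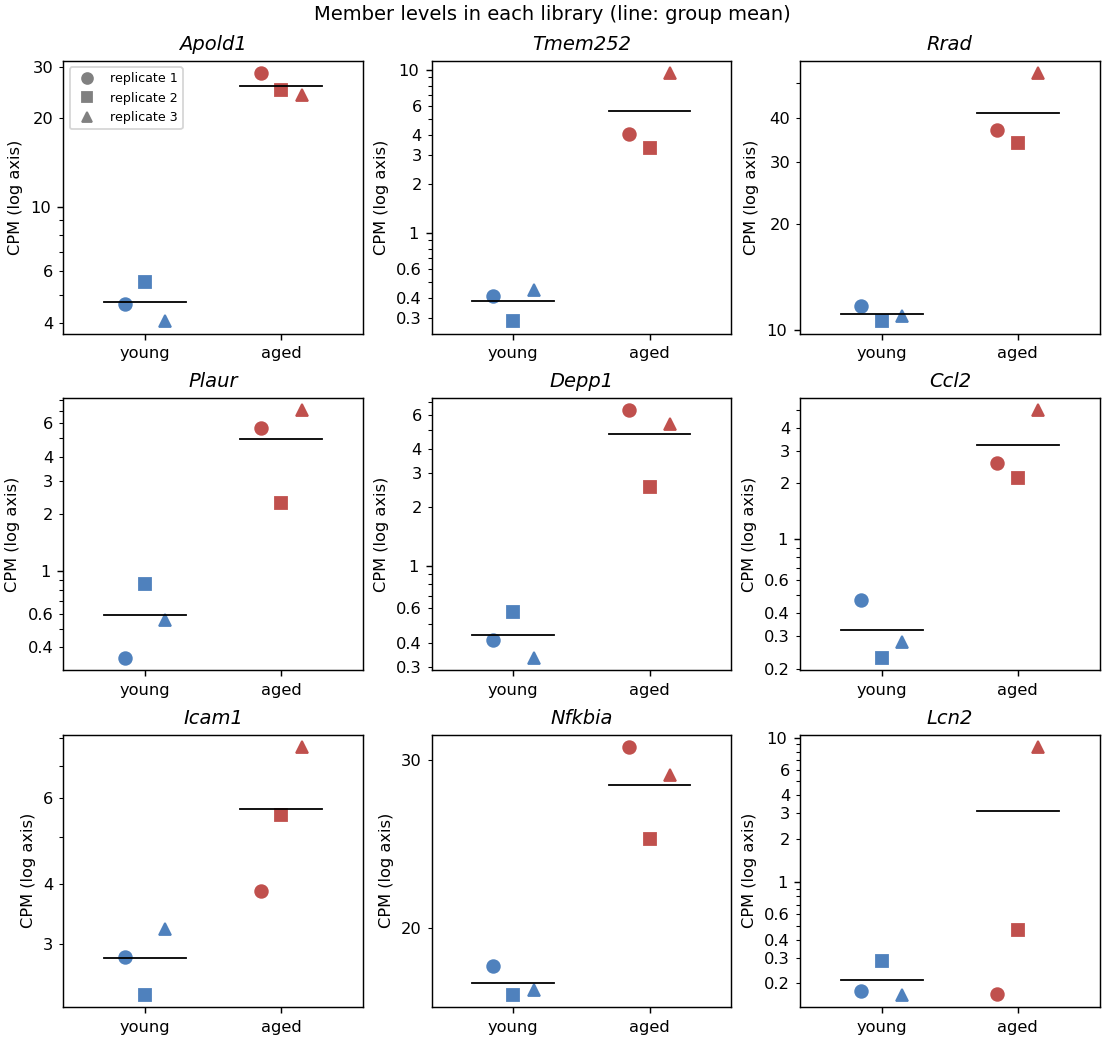
Levels of the 9 genes in CPM on a log axis, with a separate scale for each gene; points are libraries (marker shape gives the replicate) and lines are group means, n = 3 each. For 8 genes the aged points lie above the young points, while for Lcn2 aged replicate 3 alone stands at 8.65 CPM.

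Among the genes of the vessel wall, Apold1 stood at 28.5, 25.0 and 24.1 CPM in aged replicates 1 to 3 and at 4.63, 5.52 and 4.06 CPM in young replicates 1 to 3. The aged libraries lay close together and the lowest of them was 4.36-fold above the highest young library. The log2 fold change of aged over young was 2.45 ± 0.13 (SE, n = 3 each), and the group means were 25.8 ± 2.33 and 4.74 ± 0.733 CPM (SD). Apold1 had the smallest relative spread of the 9 genes within the aged group, with a coefficient of variation of 9.02%, where counting alone gives 4.62%.

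Tmem252 stood at 4.04, 3.32 and 9.52 CPM in aged replicates 1 to 3 and at 0.410, 0.287 and 0.445 CPM in young replicates 1 to 3. The young values rest on 7, 5 and 8 reads, and aged replicate 3 was 2.86-fold above aged replicate 2. Its log2 fold change was 3.85 ± 0.51 (SE), the largest of the 8 tested members and rank 7 of all tested genes. The gap between groups was wide all the same, since the lowest aged library was 7.47-fold above the highest young one.

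Depp1 stood at 6.33, 2.54 and 5.37 CPM in aged replicates 1 to 3 and at 0.410, 0.575 and 0.334 CPM in young replicates 1 to 3. Aged replicate 2 had less than the other 2 aged libraries, and the groups did not overlap. Its log2 fold change was 3.41 ± 0.42 (SE), on 6 to 10 reads per young library.

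Rrad, the calcium channel regulator, stood at 36.8, 33.9 and 53.4 CPM in aged replicates 1 to 3 and at 11.7, 10.6 and 10.9 CPM in young replicates 1 to 3. The young libraries differed by no more than 1.10-fold from lowest to highest, and aged replicate 3 was the highest of all 6. Its log2 fold change was 1.90 ± 0.17 (SE, n = 3 each). Per gene length, Rrad had the highest mean level of the 9 genes in aged libraries, 27.1 ± 6.80 FPKM (SD, n = 3), against 7.09 ± 0.359 FPKM in young libraries, where Nfkbia was first at 10.98 ± 0.398 FPKM.

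Plaur, the urokinase receptor, stood at 5.66, 2.28 and 7.04 CPM in aged replicates 1 to 3 and at 0.352, 0.862 and 0.556 CPM in young replicates 1 to 3. It had the widest relative spread of the 9 genes among young libraries, a coefficient of variation of 43.5%, where counting alone gives 31.1%. The log2 fold change was 3.06 ± 0.47 (SE), and aged replicate 2, the lowest aged library, was 2.65-fold above young replicate 2, the highest young one.

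Of the inflammatory genes, Ccl2 stood at 2.58, 2.13 and 4.96 CPM in aged replicates 1 to 3 and at 0.469, 0.230 and 0.278 CPM in young replicates 1 to 3. The young values rest on 8, 4 and 5 reads, and the aged values on 46, 41 and 86. The log2 fold change was 3.28 ± 0.45 (SE), with aged replicate 3 highest.

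Icam1, the leukocyte ligand of the endothelium, stood at 3.87, 5.56 and 7.67 CPM in aged replicates 1 to 3 and at 2.81, 2.36 and 3.23 CPM in young replicates 1 to 3. The groups did not overlap, but only 1.20-fold separated the lowest aged from the highest young library. The log2 fold change was 1.02 ± 0.25 (SE), and the call was lost without aged replicate 2, aged replicate 3 or any 1 of the 3 young libraries.

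Nfkbia, the inhibitor of NF-κB, stood at 30.9, 24.8 and 28.9 CPM in aged replicates 1 to 3 and at 18.3, 17.1 and 17.2 CPM in young replicates 1 to 3. It had the smallest fold of the tested members, a log2 fold change of 0.69 ± 0.10 (SE). The spread was small in both groups, with a coefficient of variation of 11.05% in aged and 3.76% in young libraries.

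Lcn2 differed from the other members: it was high in 1 mouse. It had 3, 9 and 150 reads in aged replicates 1 to 3 and 3, 5 and 3 reads in young replicates 1 to 3. Aged replicate 3, at 8.65 CPM, was 18.5-fold above aged replicate 2, and the remaining aged library lay among the young ones, so the groups overlapped. The mean of 3.10 ± 4.82 CPM in aged libraries (SD, n = 3), against 0.210 ± 0.067 CPM in young ones, rests on that library. With the low-count filter removed, Lcn2 was tested and not called.

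**Figure D2:**
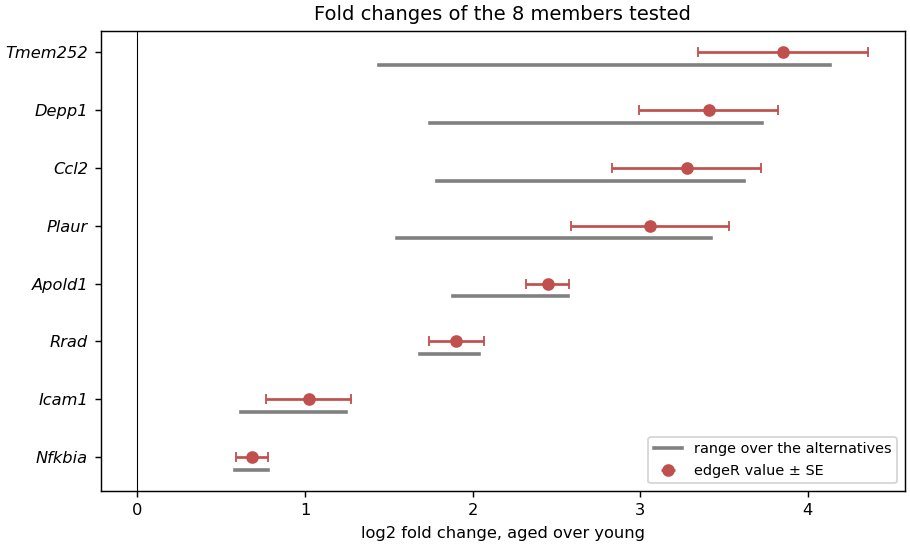
Log2 fold change of aged over young for the 8 members tested, with SE (points and bars, n = 3 each), and the range of the value over 17 processing alternatives (grey lines). Every range lies above 0, and Nfkbia (0.69) and Icam1 (1.02) are the smallest.

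Within the aged group the members did not share 1 order of libraries. Aged replicate 3 was the highest aged library for 6 of the 9 genes (Tmem252, Rrad, Plaur, Ccl2, Icam1 and Lcn2) and aged replicate 1 for the other 3 (Apold1, Depp1 and Nfkbia). Aged replicate 2 was the lowest aged library for 6 genes and the highest for 0. With the age group means removed from log2 CPM, the correlation between 2 members over the 6 libraries ranged from -0.80 (Apold1 with Icam1) to 0.99 (Rrad with Tmem252), with a median of 0.48 over 36 pairs. Tmem252, Rrad and Ccl2 moved most alike, with r of 0.95 to 0.99 between them, and Depp1 went with Plaur (r = 0.89) and Nfkbia (r = 0.88). These values describe the same 6 libraries, most of the spread lies among the 3 aged ones, and the members share library and depth.

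The 8 non-member genes whose levels within age groups were most like the members' mean were Rab22a, Vps37b, Cwc25, Chd7, Cdc42ep4, Alpk1, Ppp1r15a and Tifa, with r of 0.990 to 0.997 over 6 libraries among 13348 genes ranked. Of those ranked, 113 had r above 0.95. The age group means were removed first, so the likeness is in spread within age groups and says nothing of the rise. Rab22a, the most alike, differed between ages by 0.016 ± 0.084 on the log2 scale, and Vps37b, the next, by 0.81 ± 0.25. Vps37b stood at 29.4, 19.5 and 45.9 CPM in aged replicates 1 to 3 and at 16.6 to 19.3 CPM in young libraries, the same order of aged libraries as Rrad. Of the 8, Ppp1r15a, a regulator of eIF2α phosphorylation, rose by 0.63 ± 0.12 on the log2 scale (edgeR adjusted p = 0.0207; lost without any 1 library but aged replicate 2), and the other 7 did not pass.

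Partners and neighbours of the members were taken from 8 gene lists, whose 116 tested genes exclude the members. Of these, 23 rose (19.8%, against 3.22% of all genes), 3 fell (2.59%, against 3.64%) and 90 did not pass; their median log2 fold change was 0.14. The number that rose was 10, 13, 15 and 15 without aged replicate 3, aged replicate 1, young replicate 1 and young replicate 3, and 31 without aged replicate 2; the number that fell was 1 or 2 without any 1 of the libraries but aged replicate 2, and 6 without that one. These lists were drawn up with earlier results of the same libraries known and are not independent evidence.

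Of 22 tested genes of endothelial activation and the early response, 8 rose and 14 did not pass (5 rose without aged replicate 3), with a median log2 fold change of 0.35. Klf2, a flow-responsive transcription factor of endothelium, stood at 22.6, 21.4 and 24.9 CPM in aged replicates 1 to 3 and at 11.8, 11.1 and 8.84 CPM in young replicates 1 to 3. The groups did not overlap, and Klf2 rose by 1.12 ± 0.12 on the log2 scale (edgeR adjusted p = 0.00205). Ccn1, a matricellular protein, averaged 25.3 ± 7.82 CPM in aged libraries, against 7.18 ± 2.01 CPM in young (edgeR adjusted p = 0.00655; SD, n = 3). The metalloprotease gene Adamts1 was at 55.0 ± 19.9 and 17.1 ± 2.76 CPM (edgeR adjusted p = 0.00586). Csrnp1, a nuclear early-response protein, rose by 1.41 ± 0.21 on the log2 scale (edgeR adjusted p = 0.00789). Adamts1 was highest in aged replicate 3, at 78.1 CPM against 44.1 and 42.9, which is the order seen for Rrad.

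Around Nfkbia, 23 genes of the NF-κB list were tested, with a median log2 fold change of 0.19. Of these, 8 were higher and 0 lower at an unadjusted p under 0.05 (edgeR). The share of all genes at that unadjusted threshold was not computed, here or for the lists below, so nothing is read from such counts. Of the 23, Nfkbiz, an inducible nuclear IκB protein, rose by 0.85 ± 0.15 on the log2 scale (edgeR adjusted p = 0.0139) and 22 did not pass; the call for Nfkbiz was lost without aged replicate 1 or aged replicate 3, and without aged replicate 2 the list held 3 calls. The subunit genes Nfkb1 and Rela differed by 0.27 ± 0.11 and 0.07 ± 0.13 on the log2 scale and did not pass (edgeR adjusted p = 0.151 and 0.785). Tnfaip2, Map3k8 and Nfkb2 had log2 differences of 1.35, 0.64 and 0.57 and did not pass (edgeR adjusted p = 0.0839, 0.107 and 0.138). The cytokine genes Tnf and Il1b fell below the filter; Tnf had at most 2 reads in any library, and Il1b had 8, 7 and 36 reads in aged replicates 1 to 3 and 1 to 4 in young ones.

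The list around Ccl2 holds chemokines, their receptors and Csf1, a macrophage growth factor. Of its 15 genes in the table, 12 had few reads and fell below the filter, and of the 3 tested (Cx3cl1, Cxcl12 and Csf1) edgeR called 0, with 2 lower at an unadjusted p under 0.05 and 0 called by DESeq2 or limma-voom. Ccl7, which lies in the same chemokine family as Ccl2, had 12, 9 and 20 reads in aged replicates 1 to 3 and 2, 1 and 1 in young replicates 1 to 3. With the low-count filter removed, where 2.89% of genes were called higher, Ccl7 rose by 3.21 ± 0.63 on the log2 scale (edgeR adjusted p = 0.0147) and Cxcl10 by 2.12 ± 0.53 (edgeR adjusted p = 0.0391). Cxcl2 had 15, 1 and 18 reads in aged replicates 1 to 3 and 0 in each young library, and did not pass (edgeR adjusted p = 0.0503). Ccr2, the receptor for CCL2, had 1 to 6 reads in all 6 libraries.

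**Figure D3:**
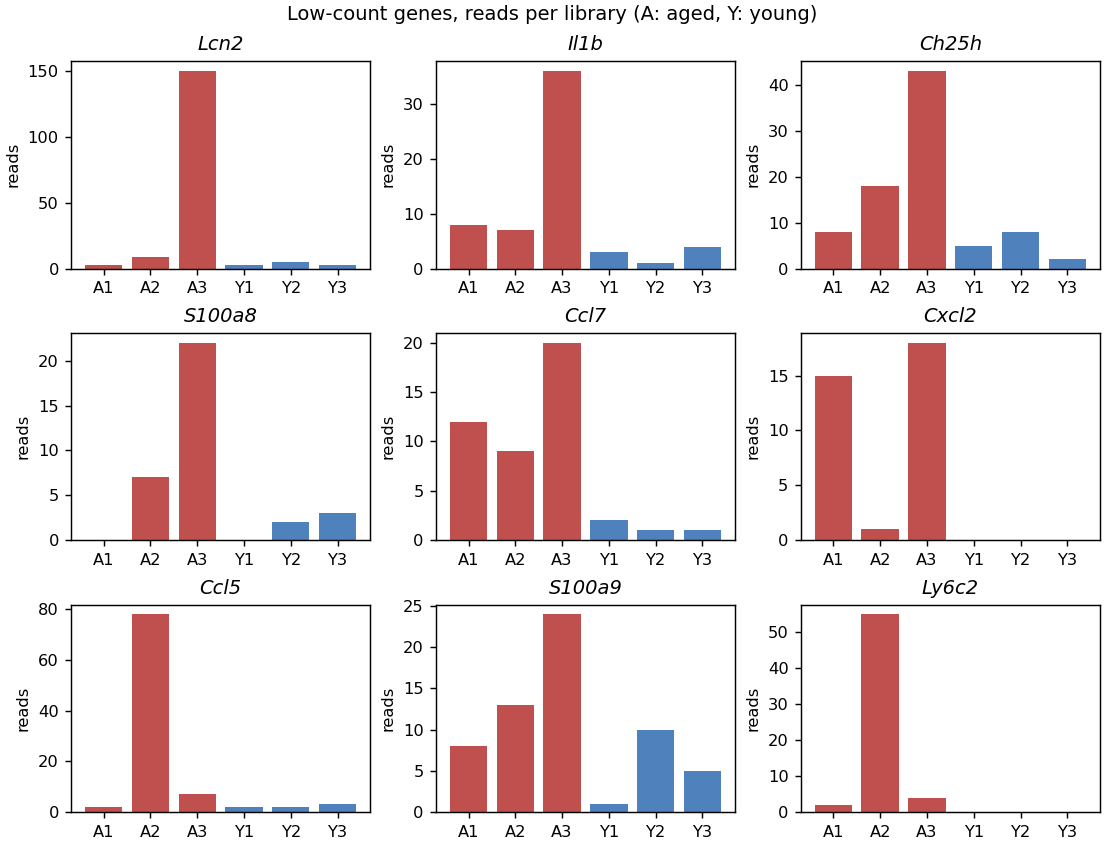
Reads per library for Lcn2 and 8 other genes with few reads (bars; A1 to A3 aged, Y1 to Y3 young replicates; each panel has its own axis from 0). Lcn2 (150 reads), Il1b (36) and Ch25h (43) peak in aged replicate 3, while Ccl5 (78) and Ly6c2 (55) peak in aged replicate 2.

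Of 13 tested genes of leukocyte adhesion around Icam1, 2 rose and 11 did not pass; neither call was kept without aged replicate 3. Itgb2, the β2 chain shared by the ICAM1 receptors, rose by 0.79 ± 0.14 on the log2 scale (edgeR adjusted p = 0.0156), and Ezr, a linker of membrane proteins to actin, by 0.57 ± 0.13 (edgeR adjusted p = 0.0308; lost without any 1 library but aged replicate 2). Of the α chains, Itgam stood at 25.6 ± 1.79 against 23.3 ± 1.82 CPM and did not pass (edgeR adjusted p = 0.347). Itgal had 14, 60 and 12 reads in aged replicates 1 to 3 and 6 to 10 in young libraries, and did not pass (edgeR adjusted p = 0.123). Msn and Itga4 differed by 0.23 and -0.43 and did not pass (edgeR adjusted p = 0.0890 and 0.0934). The aged library with the high Itgal count also held 16 genes at 4 or more times their level in each of the other 5 libraries, with at least 30 reads, among them Cd8a, Cd8b1, Il2rb, Nkg7 and Ccl5, which T and natural killer cells express. By the same measure, chosen after the values were seen, aged replicate 3 held 2 such genes, Lcn2 and Il1b, aged replicate 1 held 2, young replicate 3 held 3, young replicate 2 held 1 and young replicate 1 held 0. Icam1 was 5.56 CPM in the library with these lymphocyte genes and 7.67 CPM in the library with high Lcn2.

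In the plasminogen and urokinase system around Plaur, 2 of 12 tested genes rose and 10 did not pass (0 rose without aged replicate 1, aged replicate 3 or young replicate 1). Anxa2, a plasminogen-binding annexin, rose by 0.62 ± 0.12 on the log2 scale (edgeR adjusted p = 0.0208; lost without aged replicate 1, aged replicate 3 or young replicate 1). The urokinase gene Plau stood at 1.19 ± 0.190 against 1.09 ± 0.328 CPM and tissue activator Plat at 41.5 ± 6.66 against 35.1 ± 2.40 CPM (edgeR adjusted p = 0.822 and 0.225). Procr and Lrp1 differed by 0.79 and -0.20 on the log2 scale and did not pass (edgeR adjusted p = 0.167 and 0.189).

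Of 12 tested genes of the acute phase and the LCN2 receptors, 4 rose and 8 did not pass. Cebpb and Cebpd, transcription factors of the acute phase, rose by 1.42 ± 0.16 and 1.39 ± 0.20 on the log2 scale (edgeR adjusted p = 0.00386 and 0.00686). Cebpb stood at 17.04, 14.9 and 22.7 CPM in aged replicates 1 to 3 and at 6.04 to 7.53 CPM in young libraries. All 3 aged libraries were thus high for Cebpb, where Lcn2 was high in 1. Serpina3n, a secreted protease inhibitor of reactive astrocytes, rose by 0.95 ± 0.08 on the log2 scale, with 84.8 ± 6.57 CPM in aged libraries, against 43.8 ± 2.90 CPM (edgeR adjusted p = 0.000514). Stat3 rose by 0.40 ± 0.09 on the log2 scale (edgeR adjusted p = 0.0382; lost without any 1 library but aged replicate 2). The receptor genes Slc22a17 and Lrp2 stood at 991 ± 51.1 against 1047 ± 65.8 and at 5.81 ± 0.884 against 5.79 ± 0.836 CPM (edgeR adjusted p = 0.496 and 0.992).

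Gem, of the same GTPase family as Rrad, stood at 21.9, 9.86 and 33.3 CPM in aged replicates 1 to 3 and at 3.99, 3.45 and 3.23 CPM in young replicates 1 to 3. It was highest in aged replicate 3 and lowest of the aged libraries in replicate 2, as Rrad was, and rose by 2.60 ± 0.39 on the log2 scale (edgeR adjusted p = 0.00865). Rem2, another member of the family, stood at 5.45 ± 0.317 against 4.81 ± 0.459 CPM (edgeR adjusted p = 0.457). Of the other calcium channel and signalling genes in this list, Cacna1c and Cacna1b, which encode pore-forming subunits, fell by 0.45 and 0.22 on the log2 scale (edgeR adjusted p = 0.00844 and 0.0385), while Cacna1d, at -0.24, did not pass (edgeR adjusted p = 0.0551). The call for Cacna1c was lost without aged replicate 3, and that for Cacna1b with 9 of 17 alternatives, among them scaling by total counts.

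Of 20 tested FOXO targets and autophagy genes around Depp1, 5 rose, 1 fell and 14 did not pass; the number that rose was 1 without aged replicate 3, 2 without aged replicate 1, young replicate 1 or young replicate 3, and 3 without young replicate 2. Txnip, an inhibitor of thioredoxin, rose by 0.88 ± 0.11 on the log2 scale (edgeR adjusted p = 0.00396), Bcl6 by 0.80 ± 0.14 (edgeR adjusted p = 0.0139; lost without aged replicate 3) and Irs2 by 0.60 ± 0.12 (edgeR adjusted p = 0.0205; lost without aged replicate 1, aged replicate 3, young replicate 1 or young replicate 3). Cat, the gene of catalase, fell, to 40.7 ± 2.58 CPM in aged libraries, against 62.2 ± 4.85 CPM (edgeR adjusted p = 0.00530; SD, n = 3). The factor genes themselves did not pass by edgeR: Foxo1 stood at 46.5 ± 13.5 against 29.1 ± 0.412 CPM and Foxo3 at 70.7 ± 6.81 against 71.2 ± 5.51 CPM (edgeR adjusted p = 0.0551 and 0.95). Foxo1 was called higher in 6 of 17 alternatives: total counts, upper quartile scaling, a filter of 1 read, DESeq2, the replicate block, and without aged replicate 2.

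**Figure D4:**
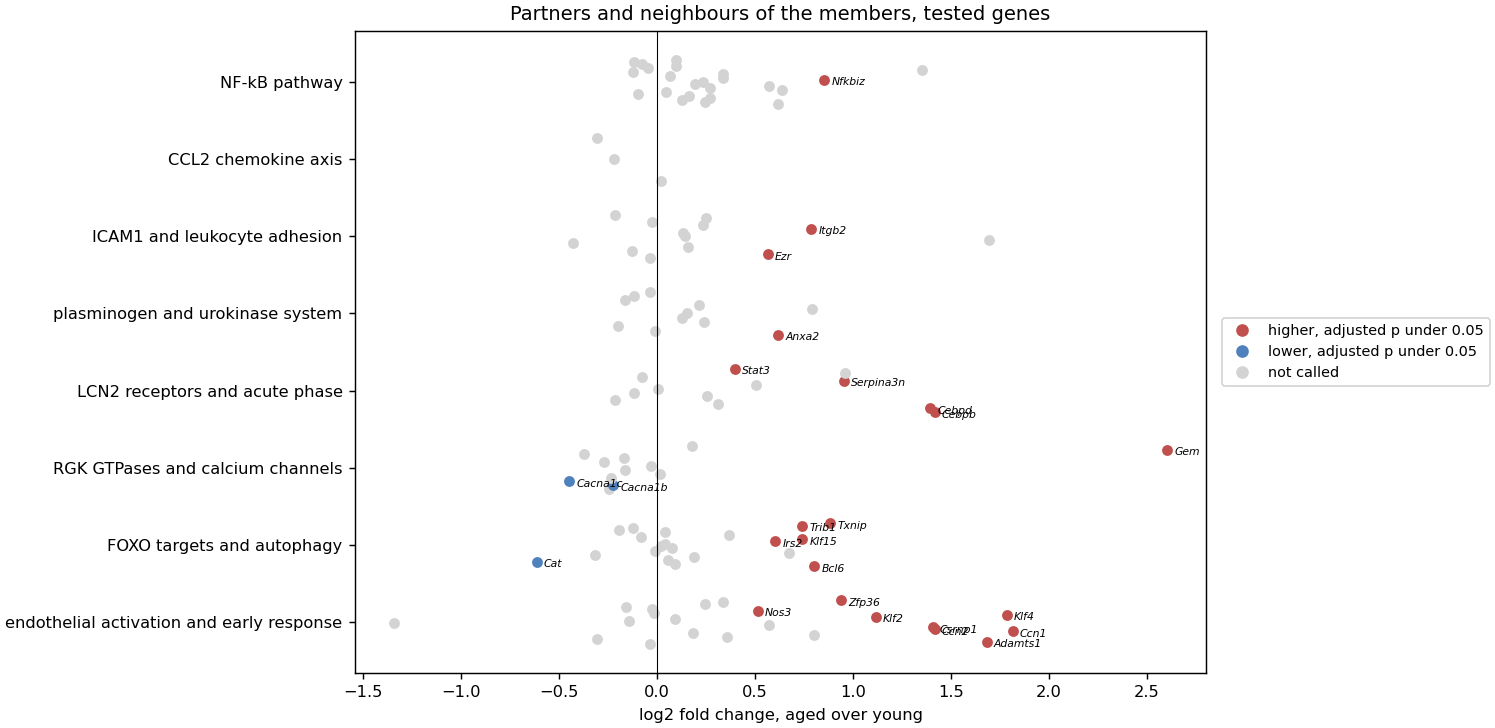
Log2 fold change of aged over young for the tested genes of the 8 lists that are reported here (points; red rose, blue fell, grey did not pass at an adjusted p under 0.05, edgeR). Endothelial activation holds 8 red points, and Gem, at 2.60, is the farthest to the right.

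Of 82 cell type markers tested, 6 rose (7.32%, against 3.22% of all genes) and 17 fell (20.7%, against 3.64%). Without aged replicate 3, 7 fell. Of 16 endothelial markers, 4 fell and 12 did not pass (1 fell without aged replicate 1, aged replicate 3, young replicate 1 or young replicate 3, and 8 without aged replicate 2). Cldn5, a tight junction protein, stood at 12.9, 18.5 and 13.7 CPM in aged replicates 1 to 3 and at 30.01, 27.1 and 26.3 CPM in young replicates 1 to 3 (edgeR adjusted p = 0.00818). The groups did not overlap for Cldn5, and Tek, an angiopoietin receptor, fell by 0.84 on the log2 scale (edgeR adjusted p = 0.0174; lost without aged replicate 1, aged replicate 3, young replicate 1 or young replicate 3). The summed level of the endothelial markers was 351 to 410 CPM in aged libraries, against 393 to 471 CPM in young, which overlap, while that of pericyte and smooth muscle markers was 187 to 218 against 262 to 309 CPM. Of the 12 pericyte and smooth muscle markers, 3 fell, 1 rose and 8 did not pass (1 fell and 0 rose without aged replicate 3), with Pdgfrb, the pericyte receptor, at -0.88 ± 0.12 and Vtn at -0.53 ± 0.08 (edgeR adjusted p = 0.00576 and 0.00947; Vtn lost without aged replicate 3).

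The other cells that could carry the members were measured the same way. Astrocyte markers summed to 2970 to 4007 CPM in aged libraries, against 4342 to 4562 CPM in young, and 3 of 10 fell, with Sox9 at -0.83 ± 0.10 and Aqp4, the endfoot water channel, at -0.70 ± 0.11 (edgeR adjusted p = 0.00396 and 0.0102). Microglia markers summed to 395 to 439 against 370 to 386 CPM. Of the 12, 3 rose and 2 fell (2 and 1 without aged replicate 3). C1qb rose by 0.65 ± 0.07 and C1qa by 0.63 ± 0.08 on the log2 scale (edgeR adjusted p = 0.00345 and 0.00483). The 2 that fell were P2ry13, called in all 17 alternatives, and P2ry12, whose call was lost in 8 of them, so the called markers went both ways. Meningeal fibroblast markers summed to 54.3 to 63.2 against 77.4 to 88.4 CPM, and 4 of 7 tested fell, with Col3a1 at -1.61 ± 0.24 and Igf2 at -0.56 ± 0.09 (edgeR adjusted p = 0.00818 and 0.0130; Igf2 lost without aged replicate 3, where 2 of the 7 fell).

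Blood leukocyte markers summed to 13.8 to 20.7 CPM in aged libraries, against 8.73 to 9.08 CPM in young. Of the 12, 10 fell below the filter, Csf3r, which microglia also express, rose by 0.66 ± 0.10 (edgeR adjusted p = 0.00947), and S100a9 did not pass (edgeR adjusted p = 0.182). Red blood cell markers summed to 79.9 to 252 against 91.1 to 183 CPM. Aged replicate 3, the highest aged library for 6 of the 9 members, had the lowest sum of all libraries. Aged replicate 1, the highest aged library for the other 3 members, had the highest sum. Choroid plexus markers summed to 42.3 to 56.4 against 32.6 to 65.1 CPM. By edgeR 0 of 5 tested red blood cell markers and 0 of 6 choroid plexus markers were called, with 0 and 1 at an unadjusted p under 0.05, and DESeq2 and limma-voom called 0 in both. Of the 12 neuronal markers Avp rose and Hcrt fell, the latter a call lost without aged replicate 1 or aged replicate 3, and their sum was 3171 to 3587 against 3537 to 3906 CPM. The part of each of these cell types in the members' levels was not tested.

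**Figure D5:**
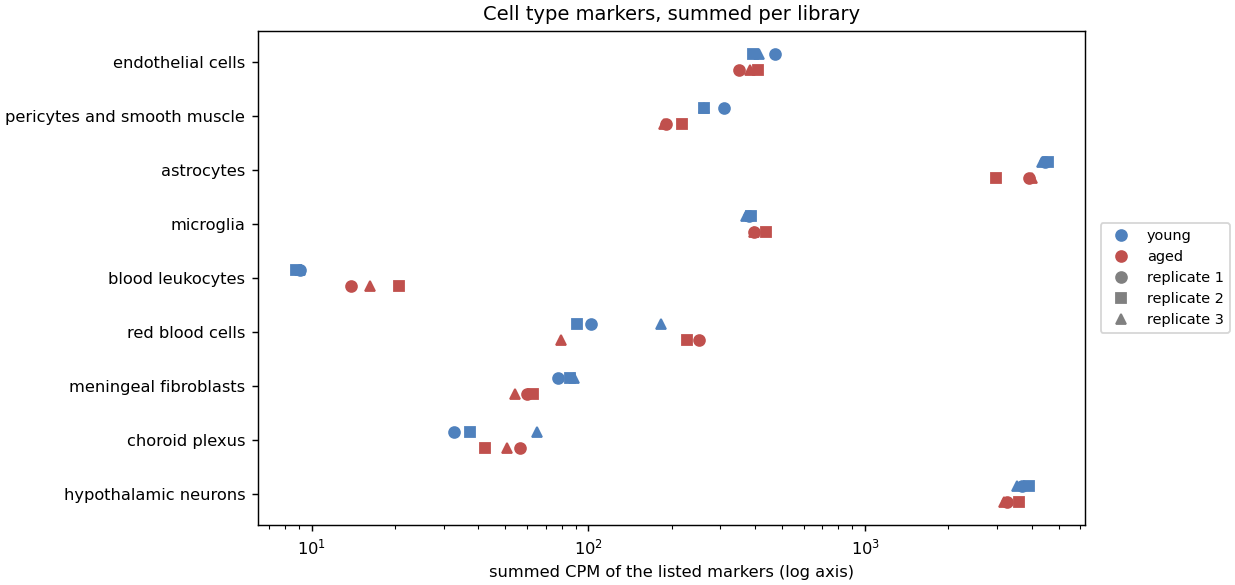
Summed CPM of the listed markers of 9 cell types on a log axis, 1 point per library (colour gives the age, shape the replicate). Blood leukocyte markers lie higher in aged libraries (13.8 to 20.7 against 8.73 to 9.08 CPM), and pericyte, astrocyte and fibroblast markers lie lower.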

How the data were processed

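RNA from hypothalamus of 6 mice was sequenced; per the labels' protocols it was extracted with the mirVana kit and made into TruSeq Stranded mRNA libraries. One deposited table gives raw read counts, and the deposited FPKM table gives the same reads per gene length and library total (18228 of 18228 genes, within a relative tolerance of 1e-06). Per the submitters' processing notes the authors used Trimmomatic, HISAT2, HTSeq, Cufflinks and DESeq on GRCm39; versions, annotation and the strand setting of the counting are not stated in the sources used here, so reads shared by similar or overlapping genes may be missing or split.

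Counts were tested with edgeR 4.0.16 (quasi-likelihood, R 4.3.3), aged against young without covariates, TMM scaling, filterByExpr (minimum count 10, minimum total count 15) and Benjamini-Hochberg adjustment over all 14702 genes kept, at 0.05. SE is that implied by the test. Each library is from 1 mouse and was used as 1 sample. On simulated counts with gene-wise spread, the share of false calls exceeded the threshold of 0.05. The share of false calls among all those reported here may thus exceed it too, and calls near the threshold are the least certain. Members and gene lists were chosen with earlier results of these data known. Besides the members, the text names up to 4 genes per partner list and up to 2 per marker list by smallest adjusted p, fixed direct partners, Y-linked genes and the 8 genes most like the members. Il1b, Ccl7, Cxcl2, Cxcl10, Tnf, Gh, Prl, Ch25h, S100a8, S100a9, P2ry12, P2ry13 and the lymphocyte genes were chosen after their values were seen. Alternatives were other scalings, other filters, DESeq2 1.42.0, limma 3.58.1 (voom, or log2(FPKM + 1) and log2(FPKM + 0.1)), a gene length correction, a block for the replicate number, and leave-one-out fits. Promoters come from a RefSeq table on GRCm38.p6, whose coordinates are not those of the deposited files' build. Results for some genes of these lists are not reported here.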

Additional observations from a re-analysis of the deposited data

How the results depend on the processing

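Over 17 alternatives, all 8 members tested kept their direction (136 of 136 values) and 7 of the 8 kept their call in each. Icam1 lost its call in 8, among them limma-voom, log2(FPKM + 1) and the length correction. The members were chosen on this contrast and the alternatives refit the same libraries, so this outcome was likely from the start and is no support. Tmem252, Plaur, Depp1 and Ccl2, with 4 to 15 reads per young library, passed the low-count filter through the aged libraries. The members called higher numbered 7 or 8 without single libraries. On log2(FPKM + 1), which compresses low genes, the log2 fold changes of Tmem252, Plaur, Depp1 and Ccl2 were 1.44, 1.55, 1.75 and 1.79. Over all tested genes the replicate numbers showed no clear pairing. Deviations of same-numbered libraries correlated at 0.095, 0.039 and -0.15, and 1 of 3 aged libraries went best with its own number. A pairing in some genes only could not be seen this way. With the replicate block 8 members, 523 genes higher and 667 lower were called, against 474 and 535 genes without it. Over all genes, 307 were higher with the length trend removed, and 293 and 303 were lower on log2(FPKM + 1) and log2(FPKM + 0.1). Without single libraries, 97 to 893 genes were higher and 58 to 740 lower; 10 to 31 partner genes were higher and 1 to 6 lower; 4 to 8 marker genes were higher and 7 to 25 lower. The fewest calls came without aged replicate 3 in each of these counts, tied with other libraries for marker genes higher, and the most without aged replicate 2; the cause was not tested. Of 26 partner genes called, 11 were called in every alternative. Depth limits Tmem252, Plaur, Depp1 and Ccl2 in young libraries (4 to 15 reads), Lcn2 and the chemokines.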
